A study of Mus musculus with 8 samples.

Results

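The 6 genes described here, Got1, Got2, Cad, Dhodh, Umps and Ctps, encode enzymes that make aspartate and turn it into pyrimidine nucleotides, and they were taken by name from the 20170 genes of a single-cell count matrix of mouse T cells. All 6 were present in the matrix and all 6 passed the filter on low counts in both CD4+ and CD8+ T cells. For each enzyme the unique molecular identifiers (UMIs, each standing for 1 captured RNA molecule) were summed over the cells of a library and CD class, and again over each named T cell subset and over cells with a low or a high share of mitochondrial UMIs.

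T cells were isolated from spleens of WT mice and of SDHA-KO mice, whose cells carry floxed Sdha alleles cut by a Cre recombinase under Cd4 regulatory sequences (Sdha fl/fl CD4-Cre). Succinate dehydrogenase A is the catalytic subunit of mitochondrial complex II, which takes part both in the tricarboxylic acid cycle and in the respiratory chain. Total T cells, so both CD4+ and CD8+ cells of mice of 8 to 12 weeks, were cultured either alone (unstimulated) or with soluble antibodies to CD3ε at 5 μg/mL and CD28 at 2.5 μg/mL for 48 h (stimulated), in a medium that held pyruvate and nonessential amino acids in every group. There were 2 libraries in each of the 4 groups (WT unstimulated, SDHA-KO unstimulated, WT stimulated and SDHA-KO stimulated), and the labels did not say whether they came from different mice, so p-values measure the spread between libraries, which may be technical. The Cre driver acts in the thymus while cells carry both CD4 and CD8, a stage that γδ T cells largely do not pass through.

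Quiescent T cells obtain most pyrimidines by salvage, whereas dividing T cells build them anew. Glutamate-oxaloacetate transaminase in the cytosol (Got1) and in mitochondria (Got2) interconverts aspartate and oxaloacetate, as part of the malate-aspartate shuttle that carries reducing equivalents across the inner mitochondrial membrane. The trifunctional protein encoded by Cad joins aspartate to carbamoyl phosphate and closes the ring to dihydroorotate. Dihydroorotate dehydrogenase (Dhodh) oxidizes that product at the inner mitochondrial membrane and passes the electrons to ubiquinone, the same acceptor that complex II uses. Uridine monophosphate synthetase (Umps) makes UMP from orotate, and CTP synthetase (Ctps) aminates UTP to CTP.

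In the GENCODE M21 annotation of mm10 (GRCm38), all 6 are protein-coding genes, at chr19:43499752-43524605 on the minus strand for Got1, chr8:95864134-95888547 minus for Got2, chr5:31054780-31078479 plus for Cad, chr8:109591343-109608673 minus for Dhodh, chr16:33954782-33967038 minus for Umps and chr4:120539868-120570276 minus for Ctps. Umps overlaps an antisense gene, Gm15829, over 800 bases, but only 30 UMIs were assigned to that gene in all 8 libraries together. Got2 overlaps Gm45760 on the other strand over 1782 bases and has a processed pseudogene, Got2-ps1, at another locus. Neither has a row in the matrix, and reads that match both Got2 and its pseudogene may have been dropped, so the level of Got2 is less certain than the others.

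The promoters of 4 members are shown because these members carry the results below: Cad, Umps and Ctps, which had the largest genotype differences in stimulated CD8+ cells, and Got1, which had the lowest one in CD4+ cells. Each stretch runs 5′ to 3′ from 250 bases before to 30 bases after a RefSeq transcription start (GRCm38.p6), which was found for 5 of the 6 members, all but Dhodh. Capitals mark matches to a cAMP response element (TGACGTCA), its core (TGACGT, which also lies within the whole element), the core of the NRF1 motif (CGCATGCG) or an ATF4-type element (TGATGNAA), on either strand. The stretches lie at chr5:31054530-31054809 (plus strand) for Cad, chr16:33967009-33967288 (minus) for Umps, chr4:120570247-120570526 (minus) for the upstream of 2 Ctps starts and chr19:43524576-43524855 (minus) for Got1.
Cad: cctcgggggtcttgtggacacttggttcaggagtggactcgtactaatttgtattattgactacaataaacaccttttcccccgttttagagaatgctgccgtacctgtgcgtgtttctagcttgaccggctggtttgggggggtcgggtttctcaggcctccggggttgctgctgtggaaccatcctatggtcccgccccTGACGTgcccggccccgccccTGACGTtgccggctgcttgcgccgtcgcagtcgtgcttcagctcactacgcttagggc
Umps: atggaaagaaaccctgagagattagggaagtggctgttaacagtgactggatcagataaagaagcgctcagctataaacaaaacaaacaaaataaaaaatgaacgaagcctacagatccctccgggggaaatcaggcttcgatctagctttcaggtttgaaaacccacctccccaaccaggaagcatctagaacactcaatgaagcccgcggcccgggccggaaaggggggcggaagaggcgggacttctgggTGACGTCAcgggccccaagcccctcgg
Ctps: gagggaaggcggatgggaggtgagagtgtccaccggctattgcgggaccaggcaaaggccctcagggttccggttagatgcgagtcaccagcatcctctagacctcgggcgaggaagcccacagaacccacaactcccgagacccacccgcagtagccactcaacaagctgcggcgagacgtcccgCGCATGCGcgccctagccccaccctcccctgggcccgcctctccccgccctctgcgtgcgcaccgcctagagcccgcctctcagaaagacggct
Got1: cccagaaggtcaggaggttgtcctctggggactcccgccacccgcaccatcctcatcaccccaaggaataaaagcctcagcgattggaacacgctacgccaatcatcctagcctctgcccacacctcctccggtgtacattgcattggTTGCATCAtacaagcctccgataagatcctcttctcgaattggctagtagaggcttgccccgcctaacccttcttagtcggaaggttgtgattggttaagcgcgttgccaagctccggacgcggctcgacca
Searched over windows of 300 bases (250 before and 50 after the start), Cad held the core element at 2 places, with first bases 49 and 28 bases before the start. Umps held the whole element from base 4 after the start. The Ctps window held the NRF1 core from 64 bases before the start, as shown, and again from base 33 after it, past the stretch shown, and the window of its other start held the core element 203 bases before it. Got1 held the ATF4-type element 102 bases before the start and the CCAAT box at 6 places. Got2 held none of these, and none of the 5 members searched held the E-box CACGTG. Over 32851 RefSeq promoter windows, the core element was present in 7.51%, the whole element in 1.79%, the NRF1 core in 1.87%, the ATF4-type element in 3.97%, CCAAT in 37.4% and CACGTG in 7.15%. These are matches of letters and describe the sequences only.

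The 12846 cells gave 859 to 1315 cells per library in the CD4 class and 325 to 844 in the CD8 class, with 6776027 to 34087903 and 3640136 to 22311319 UMIs per library. Only 23 of 12823 distinct cell barcodes were shared between libraries. The 4 T cell markers (Cd3d, Cd3e, Cd3g and Trac) summed to 1072 to 2591 CPM (the standard unit of counts scaled to sequencing depth) in every sum, and erythroid markers stayed at or under 2.47 CPM. Sdha, the targeted gene, was lower in SDHA-KO in both states. In stimulated CD4+ cells it lay, with CPM also scaled for composition by TMM (the trimmed mean of M values) as for all enzyme levels unless stated, at 74.0 and 73.1 CPM in WT and 26.5 and 26.4 in SDHA-KO. In stimulated CD8+ cells it lay at 76.2 and 74.9 in WT and 53.3 and 50.5 in SDHA-KO, a fall of 0.54 on the log2 scale (SE 0.0705, adjusted p = 8.73e-05, edgeR quasi-likelihood test). The 3′ tags were not matched to the deleted exon. The genotypes also differed in what the CD8 class held: Trdc, a γδ T cell receptor gene, gave a UMI in 59.1% and 56.1% of the CD8-class cells of the stimulated SDHA-KO libraries and in 3.67% and 4.92% of the WT ones (19.7% and 15.2% against 3.90% and 3.41% unstimulated). The CD4 class differed as well. Unstimulated, Cd4 lay there at 549.6 and 630.6 CPM in SDHA-KO against 154.7 and 154.8 in WT. Stimulated, it lay at 158.3 and 151.6 against 98.2 and 101.2. Unstimulated cells with a Cd4 UMI and none of Cd8a, Cd8b1 and Trdc made up 82.1% and 79.2% of the SDHA-KO CD4 class. In WT they made up 55.8% and 56.8%. Trdc gave a UMI in 7.08% and 7.6% of unstimulated SDHA-KO CD4-class cells and in 3.64% and 2.84% of WT ones. Among stimulated CD8-class cells that had a Cd8a or Cd8b1 UMI and none of Cd4 and Trdc, called strict CD8+ cells below, Sdha fell by 1.42. Cells with under 10% mitochondrial UMIs made up 39.1% and 41.0% of stimulated WT CD4+ cells, 86.9% and 90.0% of SDHA-KO CD4+ cells, 24.3% and 29.3% of WT CD8+ cells and 65.0% and 64.1% of SDHA-KO CD8+ cells, but at least 99.8% of unstimulated cells. Of 5 myeloid markers, Cst3 and Fcer1g were higher in stimulated SDHA-KO sums. Cst3, which made up most of their summed level, lay at 143.6 and 157.6 CPM in SDHA-KO CD4+ cells against 83.3 and 78.4 in WT and at 138.8 and 134.3 against 87.0 and 85.3 in the CD8 class, and Fcer1g lay at 4.87 to 12.02 against 0.277 to 1.00. Lyz2 was at 0 in all 8 stimulated sums, and Csf1r and Itgam stayed at or under 0.628 CPM. B cell markers reached 344.6 CPM in the first stimulated SDHA-KO CD8 library and 64.1 in the second, against 50.0 to 53.7 in WT.

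Stimulation raised all 6 enzymes in both classes and both genotypes. In WT CD4+ T cells Got1 went from 18.4 and 17.1 CPM unstimulated to 81.3 and 82.3 stimulated. Cad went from 6.09 and 4.65 to 25.5 and 23.9. Dhodh went only from 10.7 and 10.3 to 17.6 and 19.99. In each of these the stimulated libraries lay above the unstimulated ones without overlap. As log2 differences, Cad rose by 2.21 (SE 0.161) and Got1 by 2.20 (SE 0.0898) in WT CD4+ cells, Got2 by 1.72, Umps by 1.71, Ctps by 1.53 and Dhodh by 0.84 (SE 0.147, adjusted p = 0.000377, edgeR). In WT CD8+ cells the rises were 1.97 for Cad, 1.87 for Got1, 1.75 for Got2, 1.68 for Umps, 1.39 for Ctps and 0.77 for Dhodh (adjusted p = 0.000628, the highest of the 6). In SDHA-KO CD4+ cells they were 2.75 for Cad, 2.11 for Umps, 1.97 for Got1, 1.87 for Ctps, 1.83 for Got2 and 0.89 for Dhodh. In SDHA-KO CD8+ cells Umps led with 2.53, followed by Ctps (2.12), Got1 (2.11), Got2 (2.09), Cad (2.03) and Dhodh (1.00). The call (adjusted p under 0.05, higher) was also made for 36.2% of all genes tested in WT CD4+ cells, 36.6% in SDHA-KO CD4+ cells, 35.5% in WT CD8+ cells and 37.2% in SDHA-KO CD8+ cells. The median log2 difference of the 6 was 1.71, 1.92, 1.71 and 2.10 in that order, beside 0.08, 0.03, 0.09 and 0.10 over all genes. Dhodh, the 1 mitochondrial membrane enzyme among the pyrimidine steps, thus gave the smallest rise of the 6 in every group. In sums of this kind fewer cells that use a gene and less RNA per cell cannot be told apart.

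**Figure D1:**
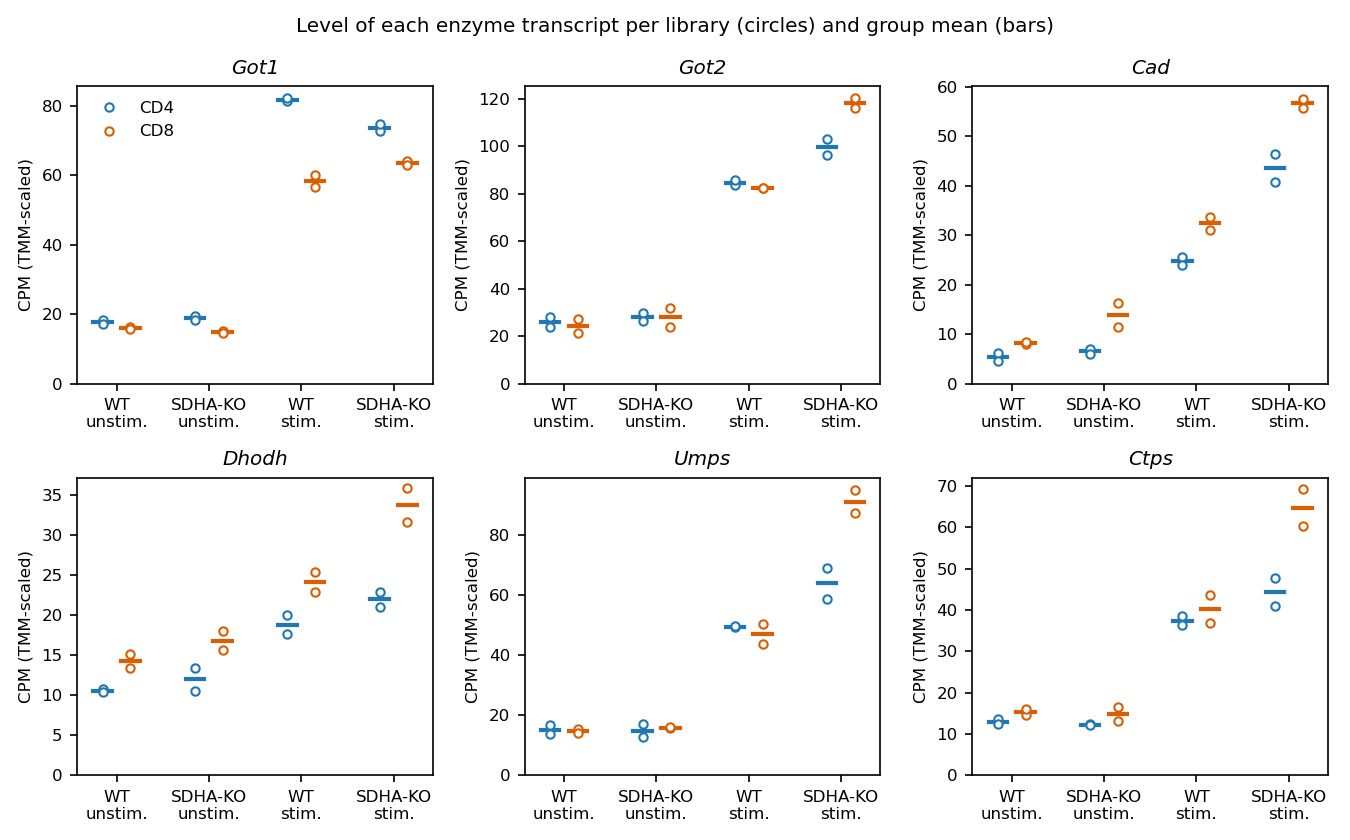
Level (CPM, TMM-scaled, linear axis) of the 6 enzymes in each library of the 4 groups, CD4+ and CD8+ T cells apart; each point is 1 library and the bar is the mean of 2. For every enzyme and class each stimulated library lies above each unstimulated one, and in stimulated CD8+ T cells Umps lies at 87.3 and 95.1 CPM in SDHA-KO against 50.3 and 43.7 in WT.

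Before stimulation none of the 6 was called between genotypes in either class by edgeR or by DESeq2. Of all genes, 1.1% were called by edgeR in CD4+ cells and 0.947% in CD8+ cells. At an unadjusted p under 0.05 the CD4 class had 0 and the CD8 class 1, which was Cad. Cad lay at 7.997 and 8.48 CPM in unstimulated WT CD8+ cells and at 11.4 and 16.3 in SDHA-KO, a difference of 0.74 on the log2 scale (SE 0.212, 95% interval 0.28 to 1.21, adjusted p = 0.137, edgeR). These sums rest on 28 to 55 Cad UMIs per library, so the interval is wide. In CD4+ cells Cad lay at 6.09 and 4.65 in WT and 7.06 and 5.95 in SDHA-KO, and the libraries overlapped. The log2 differences of the 6 ran from -0.09 (Ctps) to 0.28 (Cad) in CD4+ cells and from -0.11 (Got1) to 0.74 (Cad) in CD8+ cells. The 95% intervals of the CD4+ differences were -0.13 to 0.36 for Got2 and -0.18 to 0.54 for Dhodh, which include the differences seen after stimulation. The unstimulated CD4 classes also differed in their level of Cd4, as given above, and the part of this was not tested.

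After stimulation Cad was higher in SDHA-KO than in WT in both classes, and 3 more enzymes in CD4+ cells and 4 more in CD8+ cells were called higher, whereas Got1 was not called in either. Of all genes tested, 43.2% were called in the CD4 class (22.7% higher, 20.5% lower) and 50.4% in the CD8 class (26.8% higher, 23.5% lower), so a call by itself is common here. The median log2 difference of the 6 was 0.24 in CD4+ cells and 0.60 in CD8+ cells, beside -0.00094 and -0.0096 over all genes tested.

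Cad, whose activities make carbamoyl phosphate and join it to aspartate, lay at 25.5 and 23.9 CPM in stimulated WT CD4+ cells and at 40.8 and 46.4 in SDHA-KO CD4+ cells. In CD8+ cells it lay at 31.1 and 33.6 in WT and 57.5 and 55.8 in SDHA-KO. Both SDHA-KO libraries were above both WT libraries in each class. The log2 difference was 0.82 in CD4+ cells (SE 0.106, adjusted p = 0.000126, edgeR) and 0.81 in CD8+ cells (SE 0.0974, adjusted p = 5.21e-05). The class difference, tested in 1 fit over both classes, was -0.02 (95% interval -0.28 to 0.24, adjusted p = 0.912).

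Umps, the last enzyme on the way to UMP, showed a larger difference in the CD8 class than in the CD4 class. In stimulated CD8+ cells it lay at 50.3 and 43.7 CPM in WT and 87.3 and 95.1 in SDHA-KO, a log2 difference of 0.96 (SE 0.0878, adjusted p = 8.45e-06, edgeR). In CD4+ cells it lay at 49.4 and 49.6 in WT and 58.8 and 68.9 in SDHA-KO, a difference of 0.37 (SE 0.110, adjusted p = 0.0194). The libraries did not overlap in either class, and the difference between the classes was 0.58 (SE 0.0903, adjusted p = 0.00385). Trdc-positive cells made up 59.1% and 56.1% of the stimulated SDHA-KO CD8 class. In strict cells of both classes, described below, the class difference of Umps was 0.37 (adjusted p = 0.0484). In CD4+ cells the call was lost when a stimulated library was left out, with adjusted p = 0.0817 and 0.0776 without the first and second WT library and 0.112 without the second SDHA-KO library.

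Ctps followed the same order. It lay at 43.7 and 36.9 CPM in stimulated WT CD8+ cells and 60.3 and 69.3 in SDHA-KO, a log2 difference of 0.68 (SE 0.107, adjusted p = 0.000318, edgeR). In CD4+ cells the values were 38.5 and 36.3 in WT and 41.1 and 47.8 in SDHA-KO, with a difference of 0.25 (SE 0.0929, adjusted p = 0.0485). That CD4+ call was lost in 15 of 20 alternatives, among them DESeq2 (adjusted p = 0.174) and the fit of the 4 stimulated libraries alone (0.0771). The difference between the classes was 0.43 (SE 0.0849, adjusted p = 0.0103) and was not called in strict cells (0.37, adjusted p = 0.0955).

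Got2, the mitochondrial transaminase, lay at 83.6 and 85.9 CPM in stimulated WT CD4+ cells and 96.4 and 103.0 in SDHA-KO (log2 difference 0.23, SE 0.0804, adjusted p = 0.0357, edgeR). In CD8+ cells it lay at 82.5 and 82.6 in WT and 116.3 and 120.5 in SDHA-KO (0.52, SE 0.0905, adjusted p = 0.000653). The difference was larger in CD8+ cells by 0.27 (SE 0.0642, adjusted p = 0.0198), but not detectably so in strict cells (0.13, adjusted p = 0.372). In CD4+ cells the call was lost without the first WT library (adjusted p = 0.153), the second WT library (0.0961) or the second SDHA-KO library (0.127). Dhodh lay at 25.4 and 22.9 CPM in stimulated WT CD8+ cells and 31.7 and 36.0 in SDHA-KO (0.48, SE 0.101, adjusted p = 0.00212). In CD4+ cells it lay at 17.6 and 19.99 in WT and 21.1 and 22.9 in SDHA-KO and was not called (0.23, 95% interval -0.02 to 0.48, adjusted p = 0.131). Whether Dhodh differed between the classes was not resolved, with a class difference of 0.25 and a 95% interval of -0.03 to 0.53.

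Got1, the cytosolic transaminase, was the member not called higher in SDHA-KO in either class. In stimulated CD4+ cells it lay at 81.3 and 82.3 CPM in WT and 72.7 and 74.7 in SDHA-KO, and in CD8+ cells at 56.6 and 60.0 in WT and 64.1 and 62.8 in SDHA-KO. Both SDHA-KO libraries lay below both WT ones in CD4+ cells and above them in CD8+ cells, but neither difference was called. With 2 libraries per group such an order alone says little. The log2 difference was -0.15 in CD4+ cells (95% interval -0.30 to 0.0019, adjusted p = 0.102, edgeR) and 0.12 in CD8+ cells (-0.04 to 0.29, adjusted p = 0.192). The difference between the classes was 0.26 (SE 0.0715, adjusted p = 0.0357). Of the 6 members, 4 were called in this test of class, all higher in CD8+ cells, beside 22.4% of all genes (11.9% higher). A DESeq2 fit of the class difference called 1 of the 6 and a fit of strict cells also called 1, Umps (0.37, adjusted p = 0.0484, with 10.4% of all genes called). In cells with under 10% mitochondrial UMIs Umps (0.58), Ctps (0.49) and Got1 (0.27) were called higher in CD8+ cells, beside 18.2% of all genes. In strict cells under that share none was called by edgeR and 2 of the 6 had an unadjusted p under 0.05, beside 7.07% of all genes called. In cells with 10% or more none was called either and 3 had an unadjusted p under 0.05, beside 5.4%.

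Whether the genotype difference grew with stimulation was tested as the stimulated minus the unstimulated difference. In CD8+ cells it was 0.85 for Umps (SE 0.199, adjusted p = 0.0109, edgeR) and 0.73 for Ctps (SE 0.234, adjusted p = 0.0433), and these were the 2 members called, beside 23.8% of all genes. For Cad in CD8+ cells it was 0.06 (95% interval -0.46 to 0.58), the unstimulated difference having been 0.74. In CD4+ cells none of the 6 was called by edgeR or DESeq2, beside 21.4% of all genes, and 1 passed an unadjusted p under 0.05, Cad with 0.54 (95% interval 0.04 to 1.05, adjusted p = 0.118). Both CD8+ calls were lost when only cells with under 10% mitochondrial UMIs, or only strict cells, were summed.

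The share of mitochondrial UMIs moved with genotype, and within libraries the level of 2 enzymes, Got1 and Umps, was lower in cells with a high share under either scaling tried. With library totals only, in CPM of nuclear-encoded UMIs, Got1 in stimulated WT CD4+ cells lay at 100.6 and 99.2 in cells with under 10% mitochondrial UMIs and at 75.5 and 72.7 in the rest. In SDHA-KO it lay at 81.6 and 83.5 in the former and 72.9 and 62.2 in the latter. As the log2 difference of high-share from low-share cells of the same library, Got1 ranged from -0.45 to -0.16 and Umps from -0.56 to -0.14 over the 4 CD4+ sums, and both were below 0 in all 4 CD8+ sums. With TMM scaling over these sums the CD4+ ranges were -1.39 to -0.99 for Got1 and -1.51 to -0.99 for Umps. The CD8+ ranges were -1.795 to -1.204 and -1.495 to -1.257. For the other 4 enzymes the direction in CD4+ cells turned with the scaling in at least 1 library. Cad ranged from 0.093 to 0.39 with library totals and from -0.76 to -0.44 with TMM, Dhodh from 0.49 to 0.85 and from -0.36 to -0.12, Ctps from 0.50 to 0.93 and from -0.46 to 0.10, and Got2 from -0.083 to 0.25 and from -1.03 to -0.60. Cells with a high share were more common in WT, and their part in the differences over all cells was not tested.

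**Figure D2:**
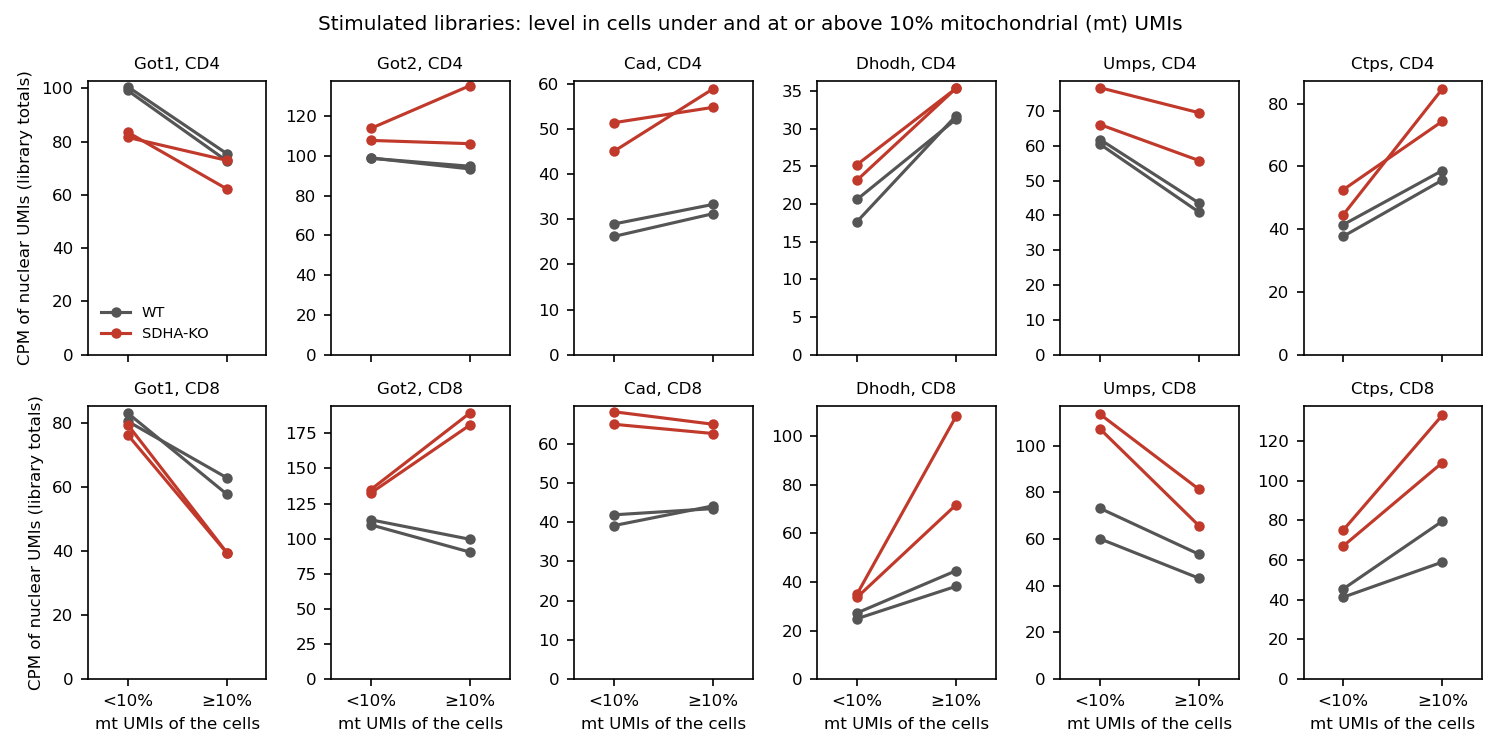
Level of each enzyme (CPM of nuclear-encoded UMIs, library totals only, linear axis) in stimulated cells with under 10% and with 10% or more mitochondrial UMIs; each line joins the 2 values of 1 library. Got1 and Umps lie lower in the high-share cells of every library, also with TMM scaling, whereas the rising lines of Dhodh and Ctps in CD4+ cells turned with TMM scaling except in 1 library of Ctps.

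Among stimulated cells with under 10% mitochondrial UMIs, 2 members were called in CD4+ cells, Cad and Got1, of which Got1 was not called over all CD4+ cells. Cad remained higher in SDHA-KO, at 29.0 and 26.2 CPM of nuclear-encoded UMIs in WT CD4+ cells and 45.1 and 51.5 in SDHA-KO (log2 difference 0.64 in the TMM-scaled fit, adjusted p = 0.000908, edgeR) and by 0.64 in CD8+ cells. Got1 was lower in SDHA-KO CD4+ cells, with the values given above, and the fitted difference was -0.45 (adjusted p = 0.000733). Got2, Umps and Ctps, called over all CD4+ cells, were not called here, with differences of -0.0070, 0.05 and 0.13 in that fit. With library totals only, a scaling chosen here after seeing the data, both SDHA-KO libraries lay above both WT ones for each of them. That order was not tested, and the share of all genes with it was not counted. In CPM of nuclear-encoded UMIs, Got2 lay at 107.8 and 113.8 against 98.8 and 99.0. Umps lay at 66.1 and 76.7 against 61.8 and 60.5, and Ctps at 44.6 and 52.6 against 41.4 and 37.7. In CD8+ cells Umps (0.65), Ctps (0.64) and Dhodh (0.32, adjusted p = 0.0263) were called beside Cad, whereas Got2 was not (0.18, adjusted p = 0.157). Of all genes, 32.8% were called in these CD4+ sums and 35.4% in the CD8+ sums. In the cells with 10% or more, a set added after the data had been seen, Cad alone was called in CD4+ cells (0.77, adjusted p = 0.0110, beside 18.4% of all genes). In CD8+ cells of that set Dhodh (1.03), Got2 (0.90), Ctps (0.73), Umps (0.53) and Cad (0.48) were called higher and Got1 lower (-0.67, adjusted p = 0.00636), beside 28.5% of all genes. Sdha did not differ detectably in those CD8+ cells (0.15, adjusted p = 0.316).

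Restricting the classes by their own markers changed the CD8+ values. In strict CD8+ cells, 33.1% and 37.1% of the SDHA-KO class and 87.2% and 85.0% of the WT class, Cad (0.82), Umps (0.74), Ctps (0.54) and Got2 (0.30, adjusted p = 0.0192, edgeR) were called higher, Dhodh was not (0.27, adjusted p = 0.0805) and Got1 lay at 0.0020, beside 49.5% of all genes called. Within the stimulated SDHA-KO CD8 class, cells with a Trdc UMI lay above the strict cells for Umps (109.7 and 111.9 CPM against 82.3 and 95.7, library totals only), Got2 (139.8 and 146.4 against 115.3 and 117.8) and Dhodh (38.6 and 42.0 against 30.8 and 36.4). Ctps (69.9 and 81.0 against 62.9 and 70.7) and Got1 (71.7 and 70.7 against 68.2 and 65.4) lay above them as well. Cad did not follow that order, with 66.4 and 60.6 against 64.4 and 65.6. In the WT libraries, where Trdc-positive cells were few, Umps also lay higher in them (69.5 and 55.9 against 58.6 and 49.9), Dhodh lay lower (25.3 and 25.01 against 30.2 and 26.5) and Got2 was mixed (90.5 and 104.4 against 98.8 and 94.1). Cad lay higher there (38.9 and 54.4 against 36.6 and 38.2). Ctps (51.6 and 55.9 against 51.9 and 41.7) and Got1 (71.6 and 66.2 against 66.5 and 69.7) were mixed. In strict CD4+ cells (a Cd4 UMI and none of Cd8a, Cd8b1 and Trdc), Cad (0.80) and Umps (0.39, adjusted p = 0.0121) were called, beside 41% of all genes. With both limits at once, also added after the data had been seen, Cad was called higher and Got1 lower in both classes: 0.61 and -0.42 in CD4+ cells (29.6% of all genes called) and 0.64 and -0.32 in CD8+ cells (32.8%), where Ctps (0.56) and Umps (0.40, adjusted p = 0.0156) were called higher too. Cad kept its direction and its call in 20 of 20 alternatives in each class, as did Umps and Ctps in CD8+ cells.

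**Figure D3:**
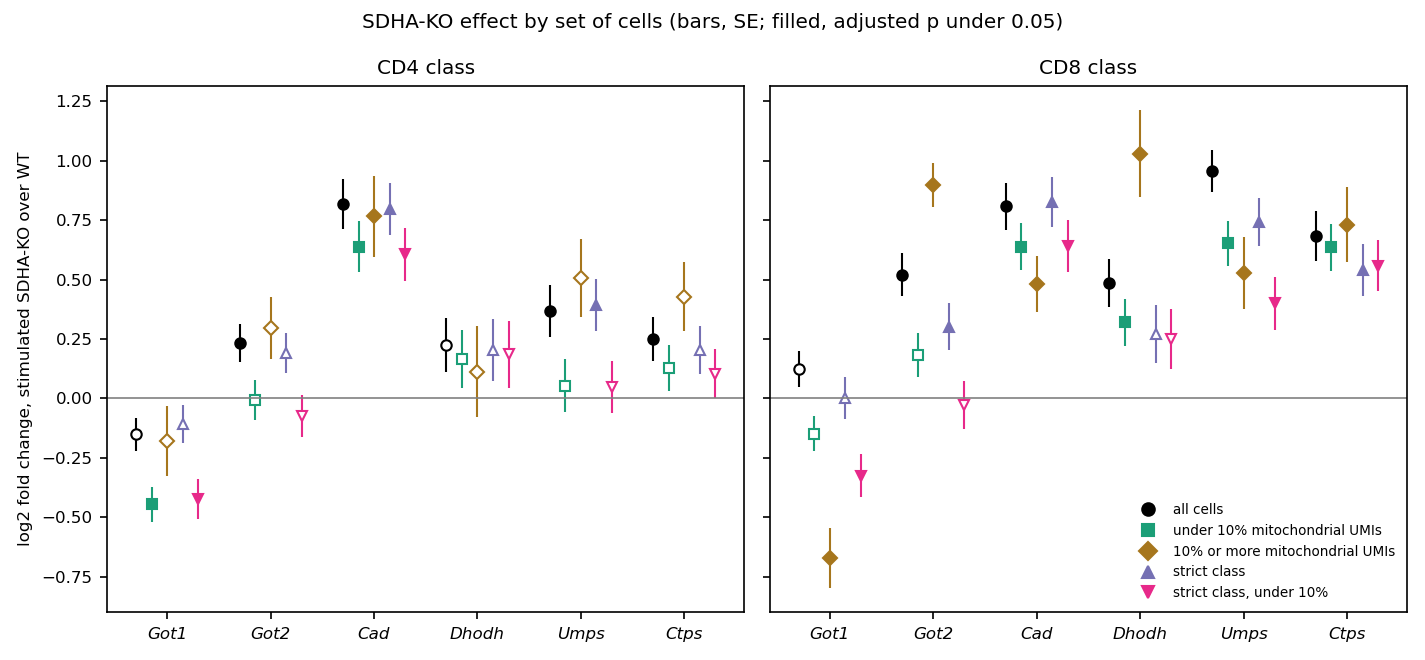
Log2 difference of stimulated SDHA-KO over WT for each enzyme in 5 sets of cells (all cells, under 10% mitochondrial UMIs, 10% or more, strict class, and strict class under 10%), with standard errors as bars; filled points have an adjusted p under 0.05, and CD4+ and CD8+ T cells are apart. Cad lies above 0 in every set of both classes, and Got1 reaches -0.45 in CD4+ cells with under 10%.

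T cell subsets named in the deposited cell table were compared where every library of a state had at least 50 cells, which held for 11 CD4+ and 5 CD8+ subset sums (16 strata, 84 tests of a member). All 13 calls were in stimulated cells. None was made in the 9 unstimulated strata, where 4 of 42 tests had an unadjusted p under 0.05. There the share of all genes called was 2.36%, 2.91%, 1.56% and 2.39% in CD4+ Naive1 to Naive4, 7.83% in CD4+ Tem1, 0.706% in CD4+ Treg, 2.41% and 2.2% in CD8+ Naive1 and Naive2 and 0.496% in CD8+ Tcm1. Cad was called in 5 of the 11 strata where it could be tested, Got1 in 3 of 15, Dhodh in 2 of 15, and Got2 (of 16), Umps (of 13) and Ctps (of 14) in 1 each.

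In the CD4+ effector memory subset Tem1, Got1 lay at 91.9 and 85.2 CPM in WT and 63.5 and 53.6 in SDHA-KO, a fall of 0.59 on the log2 scale (SE 0.119, adjusted p = 0.00446, edgeR, with 27.8% of all genes called). Cad in the same cells lay at 16.2 and 20.9 in WT and 35.1 and 36.7 in SDHA-KO, a rise of 0.92 (SE 0.159, adjusted p = 0.00180). In neither case did the genotypes overlap. Tem2 showed the same pair of changes, with Got1 at 109.2 and 118.3 in WT and 76.2 and 71.7 in SDHA-KO (-0.62) and Cad at 37.3 and 34.9 in WT and 61.4 and 54.6 in SDHA-KO (0.67, 24% of all genes called). Tem3 did so as well, with Got1 at 112.9 and 115.9 in WT and 81.1 and 89.8 in SDHA-KO (-0.41, adjusted p = 0.0155) and Cad at 32.6 and 34.5 in WT and 52.7 and 56.5 in SDHA-KO (0.71, 23% called). In the central memory subset Tcm4 Cad was called (0.72, adjusted p = 0.0463, 15.1% called) and Got1 was not (-0.25), and in Tcm2 neither was called (Cad 0.91, adjusted p = 0.0909, Got1 -0.34, 12.9% called). Thus Cad was above 0 and Got1 below 0 in all 5 stimulated CD4+ strata. Got2, Umps, Ctps and Dhodh were not called in any of them by edgeR, and 3 of their 20 tests had an unadjusted p under 0.05. The strata also differed in mitochondrial share. In Tem1 to Tem3 nearly all cells had a low share (in Tem2, 81 of 82 and 67 of 70 in WT). Their Got1 calls are therefore not independent of the call in low-share CD4+ cells given above. In Tcm2, 1 of 184 and 3 of 228 WT cells had a low share, against 26 of 88 and 26 of 72 in SDHA-KO. In Tcm4 these were 14 of 179 and 15 of 163, against 40 of 74 and 44 of 75. The part of this share in the Tcm values was not tested. With library totals only, in place of scaling for composition, Got1 was not called in Tem1 (-0.31) or Tem3 (-0.20).

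In the CD8+ effector memory subset Tem2, Umps lay at 80.7 and 65.8 CPM in WT and 126.3 and 134.8 in SDHA-KO (log2 difference 0.84, SE 0.114, adjusted p = 0.00233, edgeR). Ctps lay at 48.4 and 45.7 in WT and 71.0 and 76.6 in SDHA-KO (0.65, SE 0.0953, adjusted p = 0.00292). Cad (0.52) and Dhodh (0.49) were called there too, beside 32.6% of all genes, although Cad lost its call without the first WT library (adjusted p = 0.0583) and Dhodh without the second (0.146). Got1 lay at 85.2 and 88.7 in WT and 92.7 and 85.3 in SDHA-KO, so the genotypes overlapped. In CD8+ Tcm4, Got2 lay at 86.0 and 59.8 in WT and 130.8 and 133.9 in SDHA-KO (0.86, adjusted p = 0.0458) and Dhodh at 42.0 and 39.9 in WT and 64.9 and 104.5 in SDHA-KO (1.01, adjusted p = 0.0495), beside 5.63% of all genes. Both of these calls were lost when either WT library was left out. Few Tcm4 cells had a low share of mitochondrial UMIs. These were 1 of 153 and 1 of 158 in WT and 5 of 92 and 0 of 73 in SDHA-KO. Over all high-share CD8+ cells, described above, Got2 (0.90) and Dhodh (1.03) were called higher too. Sdha did not differ detectably there (0.15, adjusted p = 0.316, edgeR). No level of Sdha or Trdc is given for Tcm4, and whether these rises depend on loss of Sdha was not tested. Some subsets that were large in SDHA-KO could not be compared, among them CD4+ Tem5, with 369 and 375 SDHA-KO cells but 47 and 63 WT cells, and CD8+ Tem1, with 136 and 111 against 16 and 16.

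**Figure D4:**
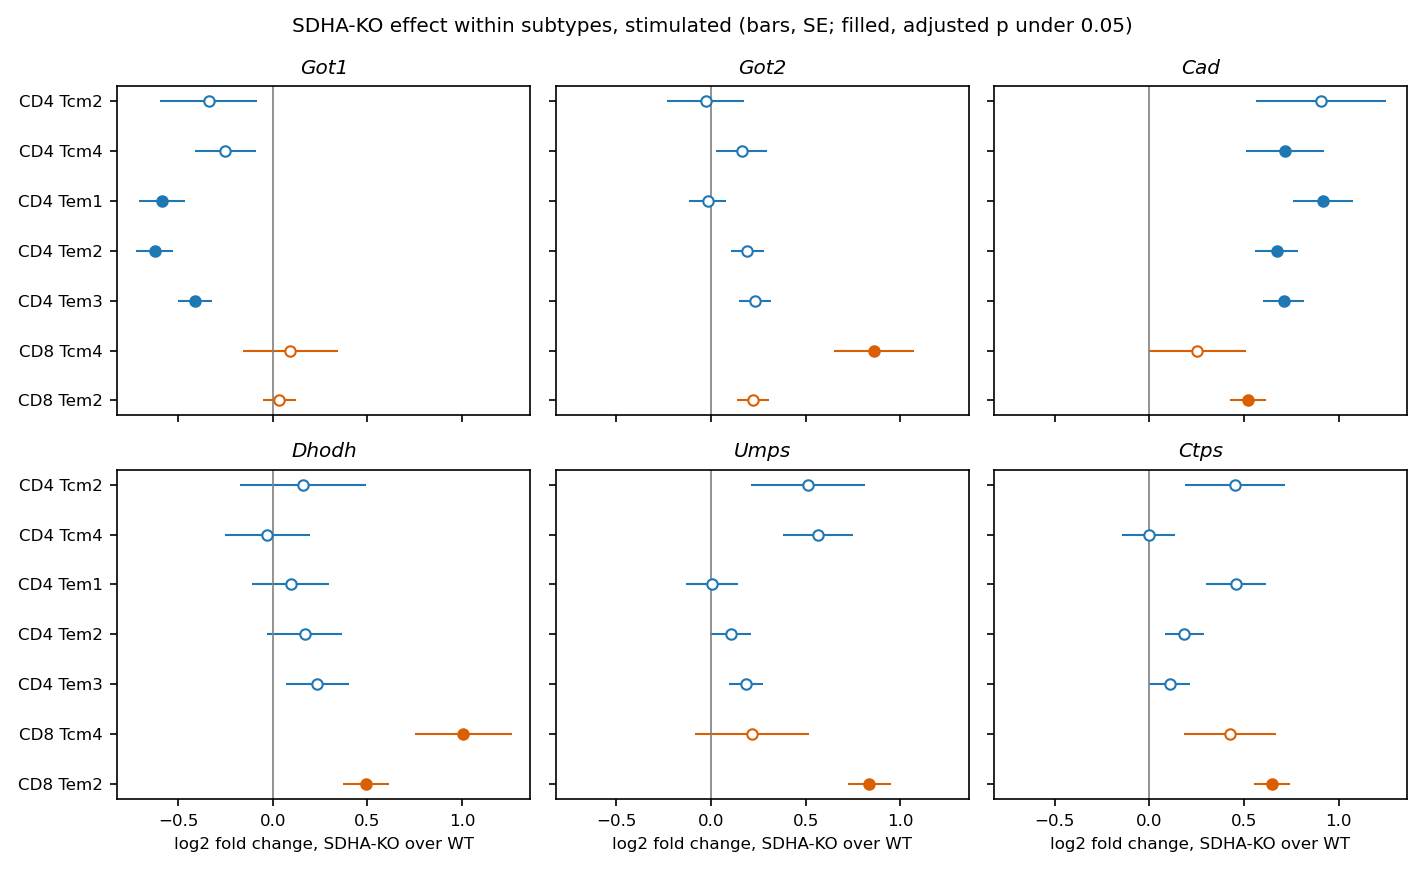
Log2 difference of SDHA-KO over WT for each enzyme in each stimulated T cell subset with at least 50 cells in all 4 libraries; bars are standard errors and filled points have an adjusted p under 0.05. Cad lies above 0 in all 5 stimulated CD4+ subsets (0.67 to 0.92) and Got1 below 0 (-0.62 to -0.25).

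Among themselves the members ran closely over the 16 sums of library and class, since all were low before and high after stimulation. Pearson's r of log2(CPM + 1) lay between 0.74 (Got1 and Dhodh) and 0.99 (Umps and Ctps). The CD classes share a library, so this is a description. Compared within each library, Cad, Ctps and Dhodh were higher in the CD8 class in 8 of 8 libraries, Got1 in 0 of 8, and Got2 and Umps in 5 of 8. Levels were not tested between classes, and the share of all genes that kept the same direction in every library was not counted. Among the 5729 genes whose mean reached 20 CPM, the 3 with the highest r to each member were Atf3 (0.996), Hmgb2 and Cdk1 for Got1, Txn1 (0.995), Ranbp1 and Txnl1 for Got2, Nup93 (0.989), Nhp2 and Mybbp1a for Cad, Mettl1 (0.977), Tsr1 and Prmt5 for Dhodh, Ube2s (0.995), Psmd12 and Hnrnpab for Umps, and Slc19a1 (0.995), Tomm40 and Mydgf for Ctps.

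The neighbouring steps of aspartate metabolism were read from a list of the malate-aspartate shuttle and of enzymes that use aspartate. Of its 11 genes tested, 6 were called higher and 3 lower in stimulated SDHA-KO CD4+ cells (median 0.27), and 5 higher and 1 lower in CD8+ cells (median 0.16), beside 22.7% higher and 20.5% lower of all genes in the CD4 class and 26.8% and 23.5% in the CD8 class. The CD4+ counts became 2 higher and 1 lower without the first WT stimulated library. In cells with under 10% mitochondrial UMIs 3 were called higher and 4 lower in the CD4 class, and 2 higher and 2 lower in the CD8 class. Of all genes, 32.8% and 35.4% were called there in either direction. Asns, asparagine synthetase, which spends aspartate to make asparagine, fell in both classes. It lay at 86.4 and 68.0 CPM in WT CD4+ cells and 18.3 and 13.9 in SDHA-KO (-2.27, SE 0.174, adjusted p = 4.10e-06, edgeR), and at 67.4 and 62.1 in WT CD8+ cells and 36.3 and 24.2 in SDHA-KO (-1.09, SE 0.157, adjusted p = 0.000260). This fall was smaller in CD8+ cells by 1.13 (adjusted p = 0.000843) and kept its call in 20 of 20 alternatives in each class. Slc25a13, an aspartate-glutamate carrier, fell in CD4+ cells (-0.45, adjusted p = 0.00630) and not detectably in CD8+ cells (0.16, adjusted p = 0.262), while the other carrier, Slc25a12, was called higher in CD4+ cells (0.27, adjusted p = 0.0349), a call lost in 9 of 20 alternatives (adjusted p up to 0.185), and lay at 0.06 in CD8+ cells. Slc25a11, the oxoglutarate carrier of the shuttle, had the largest rise of the list in CD4+ cells, from 41.6 and 41.6 CPM to 64.6 and 66.3 (0.65). The glutamate carrier Slc25a22 had the largest in CD8+ cells, from 4.25 and 3.97 to 8.88 and 8.67 (1.09). Malate dehydrogenase in mitochondria, Mdh2, rose in both (0.30 and 0.58), and the cytosolic Mdh1 rose in CD4+ cells (0.29) with 0.09 in CD8+ cells. In CD4+ cells the calls of Slc25a13, Mdh1 and Mdh2 were lost without the first WT stimulated library, that of Mdh2 also without the second SDHA-KO one, and that of Slc25a12 without any 1 of the 4 WT libraries or the first SDHA-KO stimulated one. In cells with under 10% mitochondrial UMIs Mdh1 and Mdh2 lay at -0.077 and -0.065 in CD4+ cells.

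**Figure D5:**
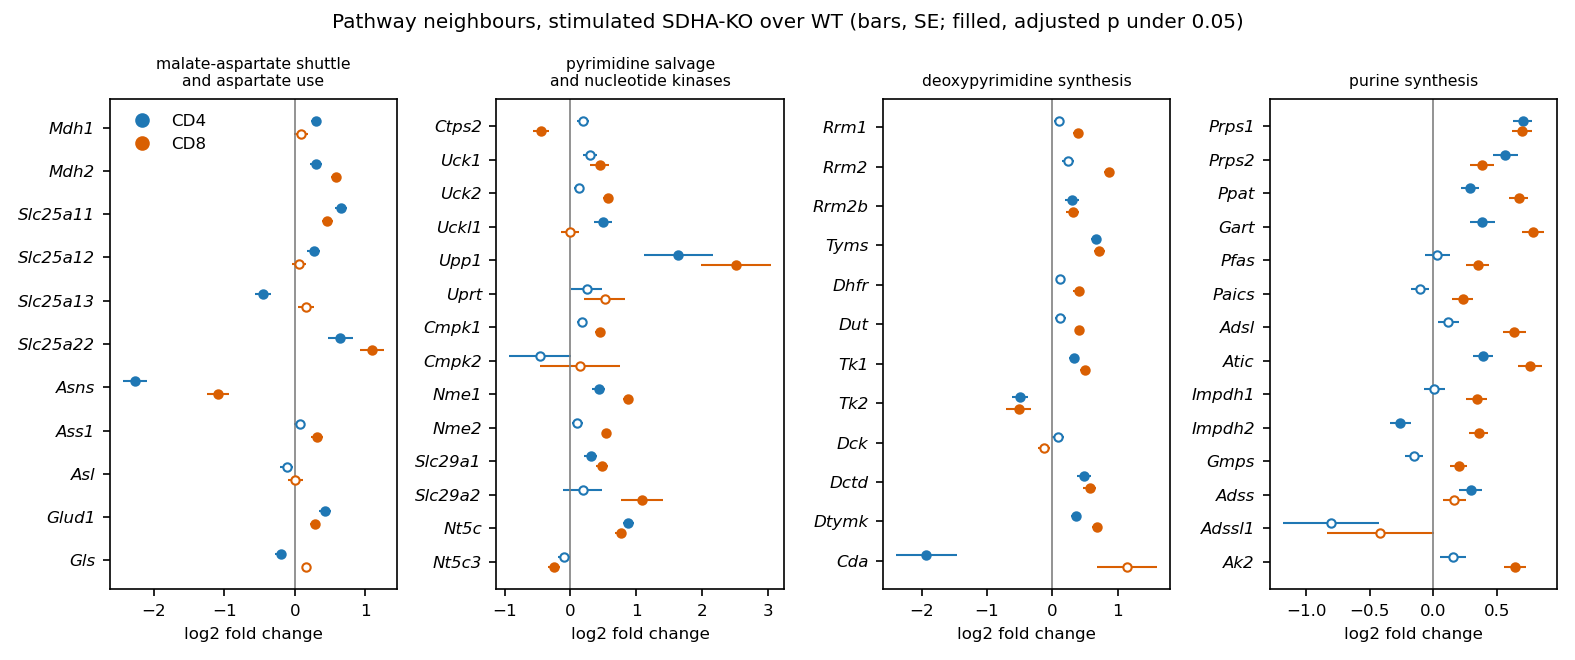
Log2 difference of stimulated SDHA-KO over WT for the tested genes of 4 neighbouring pathways, with standard errors as bars; CD4+ and CD8+ T cells apart, and filled points have an adjusted p under 0.05. Asns lies lowest among the aspartate genes (-2.27 in CD4+ and -1.09 in CD8+ cells).

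The salvage list, 14 genes that recover uridine and cytidine or phosphorylate nucleotides, had 5 called higher and 0 lower in stimulated CD4+ cells (median 0.22) and 9 higher and 2 lower in CD8+ cells (median 0.50), beside 22.7% and 26.8% of all genes called higher. Leaving out 1 library moved the CD4+ count to 2 (first WT stimulated), 3 (second SDHA-KO stimulated) or 8 (first SDHA-KO stimulated), and the CD8+ count of lower genes to 1 without either WT stimulated library or the first SDHA-KO stimulated one. The CD8+ count of higher genes then ran from 6 to 9. Uck2, uridine-cytidine kinase, rose in CD8+ cells from 94.1 and 95.6 CPM to 141.2 and 139.8 (0.57, adjusted p = 9.55e-05, edgeR) and lay at 0.12 in CD4+ cells (adjusted p = 0.212). Upp1, uridine phosphorylase, had the largest rise in both classes (1.64 and 2.52), on 9 and 27 UMIs in WT against 39 and 94 in SDHA-KO CD4+ cells and 5 and 6 against 31 and 18 in CD8+ cells. Its CD4+ call was lost without the first WT or the second SDHA-KO stimulated library, and the CD4+ difference of Uck2 was called higher without the first SDHA-KO stimulated library. Ctps2, the second CTP synthetase, moved against Ctps in CD8+ cells, from 18.9 and 18.4 CPM in WT to 14.6 and 12.5 in SDHA-KO (-0.45, adjusted p = 0.00872), but lay at 0.014 in strict CD8+ cells. It was 0.19 in CD4+ cells (adjusted p = 0.102). Of the breakdown list 1 of 5 genes could be tested, Upb1, the last enzyme of uracil breakdown, with 1.64 in CD8+ cells (adjusted p = 0.00598, lost without either WT stimulated library) and 0.93 in CD4+ cells (adjusted p = 0.210).

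Of 12 genes of deoxypyrimidine synthesis, which turn these nucleotides into DNA precursors, 5 were called higher and 2 lower in CD4+ cells (median 0.18) and 9 higher and 1 lower in CD8+ cells (median 0.45), beside 22.7% higher and 20.5% lower of all genes in the CD4 class and 26.8% and 23.5% in the CD8 class. The CD4+ count of lower genes became 0 without the first WT or the second SDHA-KO stimulated library and 1 without the second WT stimulated library. Tyms, thymidylate synthase, led the rises in CD4+ cells, from 90.7 and 87.9 CPM to 139.8 and 143.8 (0.67, adjusted p = 3.69e-05, edgeR). Rrm2, the small subunit of ribonucleotide reductase, led them in CD8+ cells, from 83.7 and 86.4 to 157.4 and 152.6 (0.87, adjusted p = 5.90e-06). But it was called lower in strict CD8+ cells with under 10% mitochondrial UMIs (-0.40, adjusted p = 0.0037). In those cells 2 genes of the list were called higher and 5 lower, beside 32.8% of all genes called in either direction. The largest called falls were those of Cda, cytidine deaminase, in CD4+ cells (-1.93, on 30 and 37 UMIs against 11 and 9) and of Tk2, the mitochondrial thymidine kinase, in CD8+ cells (-0.52, adjusted p = 0.0422). The Cda call was lost in 4 of 16 alternatives (adjusted p up to 0.198). The Tk2 call was lost in 13 of 20 (adjusted p up to 0.427), among them the fit with replicate number as a block (0.0556) and those without either WT library of either state or without the first SDHA-KO stimulated library, and the CD8+ count of lower genes was then 0. Of 14 genes of purine synthesis, the sister pathway that also uses aspartate, 6 were called higher and 1 lower in CD4+ cells (median 0.14), beside 22.7% and 20.5% of all genes. In CD8+ cells 12 were called higher and 0 lower (median 0.37), beside 26.8% and 23.5%. With a library left out the CD4+ count of higher genes ran from 4 to 6, and the CD8+ one became 7 without the first WT stimulated library. Prps1, which makes the ribose phosphate donor both pathways need, had the largest rise in CD4+ cells (0.70) and Impdh2, on the way to GMP, the only gene called lower (-0.26, adjusted p = 0.0252), a call lost in 7 of 20 alternatives, among them those without any 1 of the 4 WT libraries or without the first SDHA-KO stimulated one (adjusted p up to 0.199). Gart, a trifunctional purine enzyme, had the largest rise in CD8+ cells, from 74.5 and 67.3 to 118.7 and 125.6 CPM (0.78, adjusted p = 2.78e-05). With the strict class and under 10% mitochondrial UMIs together, 1 purine gene was called higher and 2 lower in CD8+ cells, beside 32.8% of all genes in either direction. Mki67, a marker of dividing cells, lay at 202.3 and 208.3 CPM in stimulated WT CD4+ cells and 207.8 and 166.9 in SDHA-KO (-0.13, adjusted p = 0.359), and at 223.8 and 232.0 in WT CD8+ cells and 196.0 and 168.9 in SDHA-KO (-0.32, adjusted p = 0.0368). In strict CD8+ cells its difference was -0.90 (adjusted p = 2.15e-05), in strict CD8+ cells under 10% mitochondrial UMIs -0.94 and in CD8+ cells with 10% or more 0.28 (adjusted p = 0.0630). The call over all CD8+ cells was lost without either WT stimulated library or without the second SDHA-KO stimulated library (adjusted p up to 0.146). In unstimulated cells no gene of these 5 lists was called in either class by edgeR, beside 1.1% of all genes in CD4+ and 0.947% in CD8+ cells. Of the 52 genes tested 9 in CD4+ and 7 in CD8+ cells had an unadjusted p under 0.05.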

How the data were processed

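Single-cell 3′ libraries (10x Genomics) of cultured splenic T cells, 2 per group in 4 groups, were measured. The authors deposited 1 matrix of raw UMI counts per gene and cell, made per the labels with bcl2fastq and Cell Ranger on mm10 (versions not given in the sources used here), from which they had removed cells with very many detected genes and clusters without Cd3 genes. A cell table deposited with it gave each cell's library, UMI total, percent of mitochondrial UMIs, CD class and T cell subset, the last named by the authors from clusters and markers. Its log10 ratio of Cd4 to Cd8a, also deposited by the authors, was not used. UMI totals and mitochondrial percentages were recomputed from the matrix and differed in 0 cells (percentages by over 0.001). Library names in that table (wt, ko, nt, tr) were matched to the labels, with nt and tr read as unstimulated and stimulated. No doublet caller was run, and whether doublets had been removed is not given in the sources used here.

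UMIs were summed per library and CD class in Python 3.11.15 (pandas 2.3.3, numpy 2.4.6, scipy 1.17.1; plots with matplotlib 3.10.9). Cells were not treated as replicates. Each class was fitted over its 8 libraries with edgeR 4.0.16 in R 4.3.3 (filterByExpr with a minimum count of 10 and a minimum total of 15, TMM scaling with a trim of 0.3, quasi-likelihood F test), on 14264 genes in CD4+ and 13095 in CD8+ cells with 4 residual degrees of freedom, without a replicate term. Adjusted p is Benjamini-Hochberg over all genes of the fit, and a gene was called under 0.05. Where libraries are said not to overlap, the share of all genes that did the same was not counted. The standard error is the log2 difference divided by the root of F, and intervals are at 95%. For the class difference both classes of each of the 4 stimulated libraries entered 1 fit, blocked by library (14617 genes). Subsets were fitted over the 4 libraries of a state with at least 50 cells in each, and each stratum was adjusted apart. Levels in CPM were TMM-scaled within the fit, except marker sums, levels of Trdc-positive and strict cells, and levels by mitochondrial share (CPM of nuclear-encoded UMIs), which used library totals, a choice made for the last after seeing the data. Members rested on 28 to 3807 UMIs per sum, and the common dispersion corresponded to a coefficient of variation of 8.73% in CD4+ and 8.24% in CD8+ cells. Scripts were tested on simulated data.

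Alternatives were RLE scaling, library totals only, no mitochondrial genes, no filter, DESeq2 1.42.0, cells with under 10% mitochondrial UMIs, strict classes, thinning to the smallest total, the 4 compared libraries only, each library left out and replicate number as a block. Sums of strict cells under 10% and of cells with 10% or more were chosen after seeing the data. Whether replicate numbers paired libraries could not be settled. Over 12 pairs of groups, taken in each class, the correlation of deviations from group means lay between -0.16 and 0.0394. Such low values cannot exclude pairing, since deviations between libraries also hold sampling noise. The members and the gene lists, which were written from general knowledge, were chosen with earlier results of these data known. Named beside the 6 members are the called gene with the largest rise and the largest fall of each list in each class, Ctps2, Uck2, Slc25a12, Slc25a13, Mdh1, Mdh2 and Asns whatever they did, the 3 genes most correlated with each member among those with a mean of at least 20 CPM (pseudocount 1), Sdha and Mki67.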

Additional observations from a re-analysis of the deposited data

Results flagged for a closer look

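Results are listed here because an effect differed between 2 groups by a test of the difference itself (edgeR, adjusted p under 0.05). With 2 libraries per group, no test for a single deviating library was made.

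The signed log2 difference of stimulated SDHA-KO from WT was higher in CD8+ than in CD4+ T cells by 0.58 for Umps, 0.43 for Ctps, 0.27 for Got2 and 0.26 for Got1 among the members. For Got1 the difference was -0.15 in CD4+ and 0.12 in CD8+ cells, neither of them called. Beside the members, the signed difference was higher in CD8+ cells by 1.13 for Asns (whose fall was the smaller there), 0.59 for Slc25a13, 0.43 for Uck2 and 0.27 for Mdh2. Slc25a13 was lower in SDHA-KO CD4+ cells (-0.45) and not called in CD8+ cells (0.16). It was lower in CD8+ cells by -0.66 for Ctps2. In strict cells only Umps of the 6 members was still called (0.37), and in strict cells with under 10% mitochondrial UMIs none was (2 at an unadjusted p under 0.05). Trdc-positive cells made up 59.1% and 56.1% of the stimulated SDHA-KO CD8 class and 3.67% and 4.92% of the WT class, and their part in these differences beyond the strict values was not tested.

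In CD8+ cells the genotype difference was larger after stimulation than before by 0.85 for Umps and 0.73 for Ctps. Neither was called in cells with under 10% mitochondrial UMIs or in strict cells.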

How the results depend on the processing

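All 6 members were called higher after stimulation, and 0 of 6 were called between unstimulated genotypes, under every alternative run. The count of 4 members called in stimulated CD4+ cells became 2 with DESeq2, under 10% mitochondrial UMIs, strict class, thinning and strict class under 10%, 1 in cells with 10% or more, and 1 to 4 with a library left out (1 without either WT stimulated library or the second SDHA-KO stimulated one). In stimulated CD8+ cells the count was 5 with any library left out. There Got2 lost its call under 10% mitochondrial UMIs, Dhodh in strict cells, and both in strict cells under 10%. Got1 was called lower in strict cells under 10% and in cells with 10% or more. For the stimulated minus unstimulated difference the CD4+ count of 0 became 1 under 10% mitochondrial UMIs and 0 to 2 with a library left out (2, Cad and Ctps, without the first SDHA-KO stimulated library). The CD8+ count of 2 became 1 with library totals only, DESeq2 or thinning, 0 under 10%, in strict cells or with both, and 0 to 2 with a library left out (0 without the first WT or the second SDHA-KO unstimulated library). For CD8 minus CD4 the count of 4 became 2 with library totals only, 1 with DESeq2 or strict class, 0 in strict cells under 10% and in cells with 10% or more, and 1 to 4 with a library left out. Within subsets the 13 calls became 21 with library totals only, 10 of 66 tests under 10%, and 8 to 13 with a library left out (8 without the second WT library). The causes were not tested.

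With replicate number as a block the members called were 2 in stimulated CD4+ cells (Ctps adjusted p = 0.0552, Got2 0.057), 1 for the CD8+ stimulated minus unstimulated difference (Ctps 0.0563), 1 for CD8 minus CD4 (1902 of all genes) and 14 within subsets, and no other member count moved.

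Directions reversed as follows, as log2 differences. In unstimulated CD4+ cells Ctps was 0.025 when thinned, and Umps ran from -0.25 to 0.17 with a library left out. In unstimulated CD8+ cells Ctps was 0.088 and Got1 0.025 with library totals only, 0.14 and 0.024 in strict cells, and Ctps 0.048 when thinned, and with a library left out Ctps ran from -0.20 to 0.12 and Got2 from -0.026 to 0.39. In stimulated CD4+ cells under 10%, Mdh2 was -0.065, Mdh1 -0.077 and Got2 -0.0070, and with strict class too -0.097, -0.053 and -0.074. Thinned, Uck2 was -0.033 and Dhodh -0.014. In cells with 10% or more Mki67 was 0.24 and Ctps2 -0.45, and Mki67 ran from -0.28 to 0.032 with a library left out. In stimulated CD8+ cells under 10%, Mdh1 was -0.29 and Got1 -0.15. In strict cells Slc25a13 was -0.035 and Ctps2 0.014. Thinned, Slc25a12 was -0.015. Strict under 10%, Mdh1 was -0.27, Rrm2 -0.40 (called lower), Ctps2 0.23, Got2 -0.029 and Got1 -0.32. In cells with 10% or more Mki67 was 0.28, Mdh1 -0.15, Sdha 0.15 and Got1 -0.67. With a library left out Mdh1 ran from -0.0085 to 0.16 and Slc25a12 from -0.080 to 0.19. For stimulated minus unstimulated in CD4+ cells, Got2 was -0.13 and Dhodh -0.013 under 10%, -0.16 and -0.040 with strict class too, Dhodh -0.026 in strict cells and -0.22 when thinned, and from -0.11 to 0.22 with a library left out. In CD8+ cells Cad was -0.13 with library totals only, -0.11 under 10%, -0.14 in strict cells, -0.16 when thinned, -0.33 in strict cells under 10%, and from -0.18 to 0.33 with a library left out. Got2 was -0.0067 and -0.28 under 10% without and with strict class, Got1 -0.046 and -0.36 there and -0.022 in strict cells, and Dhodh -0.029 in strict cells and -0.057 in strict cells under 10%. For CD8 minus CD4, Cad was 0.046 in strict cells, 0.029 in strict cells under 10% and from -0.14 to 0.10 with a library left out, and Got1 -0.51 in cells with 10% or more.

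Counts over all genes moved by over 1.5 times as follows. Unstimulated CD4+ cells gave 157, and 643 without filter, 281 with DESeq2, 261 thinned, 445 with 4 libraries and 18 to 263 with a library left out. Unstimulated CD8+ cells gave 124, and 225, 264, 227, 338 and 10 to 172 in the same order, and 219 in strict cells. Stimulated CD4+ cells gave 6160, and 3781 in strict cells under 10%, 2106 in cells with 10% or more and 4020 without the first WT library. Stimulated CD8+ cells gave 6594, and 3760 and 3342 in those cell sets. Stimulated minus unstimulated gave 3053 in CD4+ and 3111 in CD8+ cells, and 1951 and 1397 under 10%, 1631 and 1333 with strict class too, and 1722 to 3290 and 1848 to 2927 with a library left out. CD8 minus CD4 gave 3270, and 1505 with DESeq2, 1430 in strict cells, 909 in strict cells under 10%, 659 in cells with 10% or more and 1727 without the first WT library. With library totals only the median over all genes moved from 0.08 to 0.30 (WT CD4+), 0.03 to 0.26 (SDHA-KO CD4+), 0.09 to 0.57 (WT CD8+) and 0.10 to 0.39 (SDHA-KO CD8+) for stimulation, from 0 to 0.12 for unstimulated CD8+ cells and from -0.01 to -0.21 for the CD8+ stimulated minus unstimulated difference. The share of calls that were higher moved from 54.6% to 65.4%, 52.4% to 62.8%, 54.0% to 75.6%, 54.6% to 66.3%, 29.8% to 73.1% and 56.9% to 32.7% in that order, from 53.3% to 39.5% for CD8 minus CD4, and from 47.8% to 37.6% with RLE scaling in unstimulated CD4+ cells. Unstimulated sums held 28 to 280 UMIs of a member per library, which limits what could be detected before stimulation.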
